A study of Mus musculus with 6 samples.

Results

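The complement genes described here are 9 genes taken by symbol from the 55385 genes of the deposited tables, C1qa, C1qb, C1qc, C3, C4b, Cfb, Serping1, C3ar1 and C5ar1, and all 9 were detected in all 6 libraries. RNA was sequenced from mammary tissue of female NeuT/ATTAC mice, which carry an active rat ErbB2[V664E] gene from the MMTV-NeuT line and an FKBPv-caspase-8 fusion driven by the FABP4 promoter, which is active in fat cells. AP20187, a dimerizer that switches on this caspase and removes part of the mammary fat, was injected at 0.4 mg/kg 3 times a week from 6 weeks of age. The DMHCA group also received, from 8 weeks of age, a diet with 0.05% DMHCA, an agonist of the liver X receptor (LXR), which corresponds to about 100 mg/kg. The controls' label can be read as AP20187 with vehicle or as vehicle alone, and the study's text describes control tumors from mice given AP20187. The labels name the tissue as fibrotic mammary gland and the study describes tumors, and neither gives the age at which the tissue was taken.

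There were 3 control and 3 DMHCA libraries, with 46358654 to 63420620 expected counts each. DMHCA 1 and DMHCA 3 differed far less than any other pair within a group (biological coefficient of variation 0.0327, against 0.376 to 0.579), and 18.2% of 13380 genes differed between them beyond counting noise, against 82% to 87% in the other pairs. Their counts were added and used as 1 sample, DMHCA 1+3, so the comparison was of 3 control with 2 DMHCA samples, and the 9 complement genes differed by 0.2% to 3.7% between the merged libraries. Marker genes of other tissues stood apart in some controls. The summed level of 8 B cell markers was 37.3, 1.63 and 304 TPM (transcript abundance per unit of length, scaled to the same sum in each library) in control 1, control 2 and control 3, against 3.1 and 2.71 TPM in DMHCA 1+3 and DMHCA 2. The corresponding sums were 161, 3.25 and 1589 TPM against 14.7 and 5.15 TPM for 5 lymph node stroma markers, 240, 144 and 1064 TPM against 91.2 and 126 TPM for 8 adipocyte markers, and 9339, 16.7 and 128 TPM against 45.8 and 15.6 TPM for 6 salivary gland markers. The sum of 8 mammary epithelial markers was 4306, 3631 and 3488 TPM in the controls and 5198 and 5018 TPM in the DMHCA samples. By group means of normalized counts (counts scaled to a common library size), 5 of them were higher and 3 lower with DMHCA. Only 1 was higher in both DMHCA samples than in every control, against 13.8% of all genes. The summed level of 8 LXR target genes was 390 to 741 TPM in the controls and 3421 TPM in both DMHCA samples. Scd1 alone had 1822.72 and 2018.12 TPM in DMHCA 1+3 and DMHCA 2. Of the 8, 7 had a higher mean with DMHCA and 1, Nr1h3, a lower one (log2 fold change -1.46). In such bulk RNA, fewer cells of a type and less RNA per cell cannot be told apart.

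Complement is a cascade of plasma and tissue proteins that tags surfaces for uptake and recruits leukocytes. The classical pathway starts when C1q, built from the A, B and C chains encoded by C1qa, C1qb and C1qc, binds its target and its partner proteases C1r and C1s cleave C4 and C2. The alternative pathway uses factor B (Cfb) and factor D (Cfd), and both routes meet at C3, whose fragments coat surfaces and release the peptide C3a. C3a and the later peptide C5a act on the receptors C3ar1 and C5ar1, and Serping1 encodes the C1 inhibitor, which blocks C1r and C1s. In most tissues C1q is made mainly by macrophages and dendritic cells, whereas C3, factor B and the C1 inhibitor are also made by stromal and epithelial cells.

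In the GRCm38 annotation the C1q genes lie side by side on chromosome 4, in the order C1qb, C1qc, C1qa, within 18675 bases (chr4:136880129-136898803). C4b (chr17:34728380-34743882) and Cfb (chr17:34856374-34862518) lie in the same region of chromosome 17, C3 lies elsewhere on that chromosome (chr17:57203970-57228136), and Serping1, C3ar1 and C5ar1 are on chromosomes 2, 6 and 7. All 9 are on the minus strand. The RefSeq promoter table (GRCm38.p6) matched 5 of the 9 genes (C1qb, C1qc, C3, C3ar1 and C5ar1), and the 250 bases before the RefSeq start are shown for those with the narrowest and the widest range in TPM, C1qb (chr4:136886201-136886450, minus strand) and C3 (chr17:57228137-57228386, minus strand), with matches to the searched motifs in capitals.
C1qb: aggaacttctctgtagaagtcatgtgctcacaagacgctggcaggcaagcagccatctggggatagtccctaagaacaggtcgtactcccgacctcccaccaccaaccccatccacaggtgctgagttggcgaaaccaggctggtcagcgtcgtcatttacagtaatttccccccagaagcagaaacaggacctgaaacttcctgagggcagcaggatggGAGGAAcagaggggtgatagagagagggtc
C3: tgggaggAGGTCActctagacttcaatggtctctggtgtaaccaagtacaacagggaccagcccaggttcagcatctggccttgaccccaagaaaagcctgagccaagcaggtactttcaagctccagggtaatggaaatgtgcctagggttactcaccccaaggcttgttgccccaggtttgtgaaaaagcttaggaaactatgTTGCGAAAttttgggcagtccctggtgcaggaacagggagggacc

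The capitals in C1qb mark GAGGAA, a core bound by PU.1, a factor of myeloid cells, that starts 30 bases before the transcript start. This core occurred on either strand in 23.3% of 32851 mouse promoter windows of the same length. The capitals in C3 mark AGGTCA, the core shared by many nuclear receptor sites, 243 bases before the start, and TTGCGAAA, a match to the C/EBP motif TTGCNNAA, 45 bases before it. Those motifs occurred in 14.0% and 9.56% of all windows. The C1qc window, which is not printed, also held the PU.1 core and the AGGTCA core. Both read on the opposite strand, 193 and 174 bases before the start. The LXR element of repeated cores, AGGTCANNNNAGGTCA, matched none of the 5 windows, and it matched only 0.0152% of all windows. The GAS motif TTCNNNGAA, the ISRE motif GAAANNGAAA and the NF-kB motif GGGANTTTCC, which occurred in 7.02%, 2.98% and 0.356% of all windows, also had no match in the 5. The AGGTCA core occurs inside the LXR element, and a match of letters is not evidence of binding.

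Per unit of transcript length, C1q RNA was the most abundant. The mean level in the controls was 338 ± 23 TPM for C1qa, 201 ± 9.1 TPM for C1qb and 198 ± 19 TPM for C1qc (SD, n = 3). C4b followed at 107 ± 64 TPM, Serping1 at 84.4 ± 48 TPM, C3 at 48.8 ± 59 TPM and Cfb at 38.2 ± 25 TPM. The receptor transcripts were the lowest, C3ar1 at 9.4 ± 3.0 TPM and C5ar1 at 7.12 ± 3.9 TPM. C1qa stood above C1qb and C1qc in every sample. C1qb and C1qc overlapped, C4b, Serping1, C3 and Cfb overlapped as neighbours in this order, and so did the receptors.

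No complement gene among the 9 was called different between the groups. By edgeR's quasi-likelihood test with Benjamini-Hochberg adjustment over 19427 genes, 0 of the 9 had an adjusted p under 0.05, the same as the 0% of all genes called, and no gene had an adjusted p below 0.644. The LXR target genes were not called either, so this test cannot show that the 9 were unchanged. At an unadjusted p under 0.05 the count was also 0 of 9, against a background of 4.08% of all genes lower and 3.53% higher with DMHCA. DESeq2 on the 6 separate libraries called 4.45% of the genes with an adjusted p, and 0 of the 9. In 8 of the 9 the DMHCA mean lay below the control mean, with a median log2 fold change of -0.41, against 52% of all genes and a median of -0.03. Among tested genes with a mean of at least 100 normalized counts, 47.6% were lower, with a median of 0.03. Control 3 had the highest lymph node and adipocyte marker sums, and control 1 the next highest. Without control 3, 6 of the 9 were lower and the median was -0.28 (49.2% of all genes were lower). Without DMHCA 2 also 6 were lower, with a median of -0.11 (55.9% of all genes). All 9 were lower without control 1 or without control 2, with medians of -0.53 and -0.38 (52.8% and 48.3% of all genes). The control and DMHCA samples did not overlap for 1 of the 9, C1qa, which was lower with DMHCA, and such separation held for 12.2% of all genes in that direction and 13.8% in the other.

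**Figure D1:**
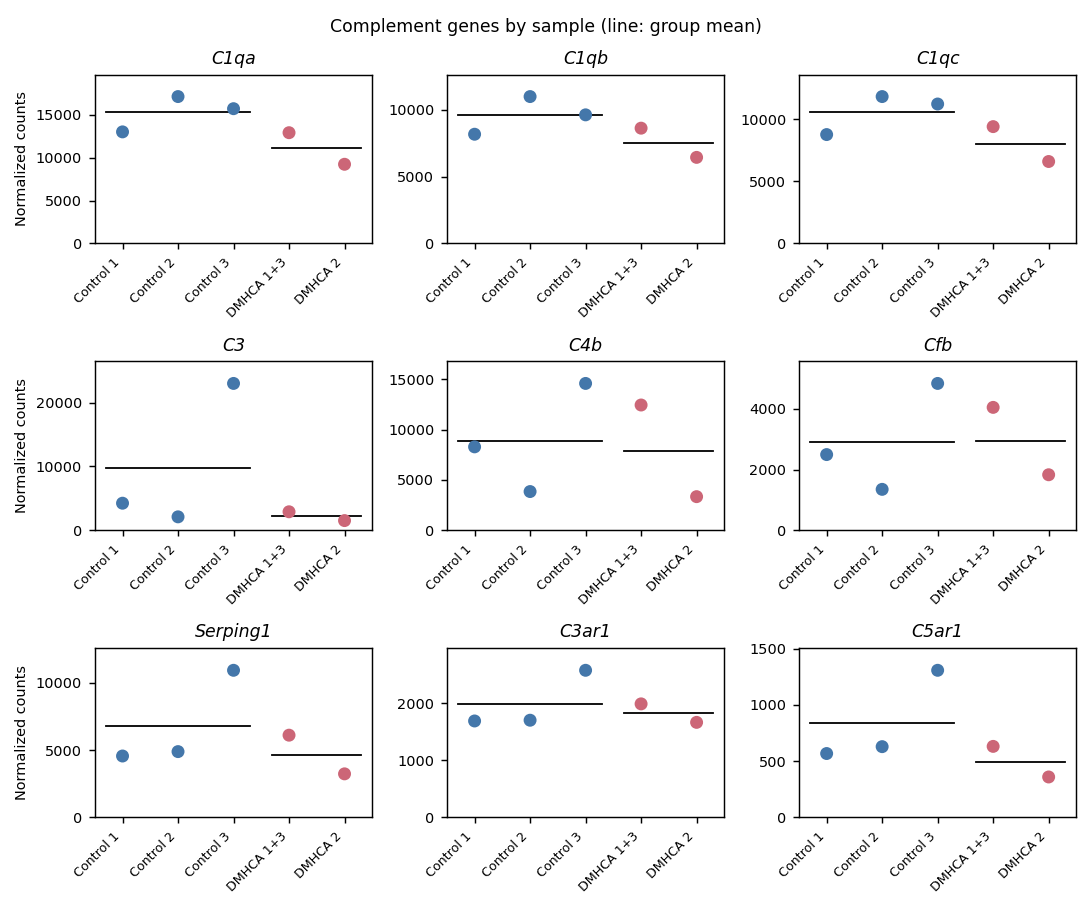
Normalized counts (vertical axis from 0, scale set per gene) of the 9 complement genes in the 3 control samples (blue) and the 2 DMHCA samples (red), with lines at the group means. The C1q genes differed by at most 1.86-fold across samples, while control 3 was the highest sample for the other 6 genes.

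The genes encoding C1q, the recognition part of the classical pathway, had the narrowest ranges of the 9 in TPM, 1.3-fold to 1.48-fold from the lowest to the highest sample. In normalized counts their ranges were 1.71-fold to 1.86-fold, and only that of C3ar1 was narrower. C1qa had 12996, 17109 and 15698 normalized counts (counts scaled to a common library size) in control 1, control 2 and control 3, against 12901 in DMHCA 1+3 and 9222 in DMHCA 2. The DMHCA samples were both below the controls, but DMHCA 1+3 was nearly equal to control 1, and the log2 fold change was -0.46 (SE 0.30, 95% interval -1.18 to 0.25, edgeR adjusted p = 0.683). C1qb had 8180, 11001 and 9632 normalized counts in the controls and 8635 and 6447 with DMHCA. Here DMHCA 1+3 was above control 1, so the groups overlapped, and the log2 fold change was -0.35 (SE 0.28, interval -1.03 to 0.33, edgeR adjusted p = 0.738). C1qc had 8771, 11832 and 11232 normalized counts against 9411 and 6601, which again overlapped, with a log2 fold change of -0.41 (SE 0.30, interval -1.12 to 0.31, edgeR adjusted p = 0.714). DMHCA 2 was the lowest sample for each chain, and without it the log2 fold changes were -0.20, -0.11 and -0.13. The highest sample was control 2 in normalized counts but control 3 in TPM, so the order of the controls depended on the scaling.

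The C1q genes moved almost in parallel. Over the 5 samples the profile of C1qc differed from that of C1qa by a root mean square of 0.04 on the centred log2 scale of normalized counts, and C1qa was the nearest to C1qc of 14156 genes with a mean of at least 100 normalized counts. The difference was 0.067 between C1qa and C1qb and 0.06 between C1qb and C1qc, and C1qb ranked 5th nearest to C1qa and 4th nearest to C1qc. Seen from C1qb, C1qc ranked 10th and C1qa 14th, so other genes lay nearer to it than its partner chains. The genes with profiles closest to the mean of the C1q genes were Rhebl1 (0.022), Tmem30a (0.045), Pcsk7 (0.057), Nradd (0.059) and Fem1b (0.061). These are distances over 5 samples and describe likeness in these libraries only.

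The share of each chain in the summed C1q TPM was narrow. C1qa made up 46.2%, 45.6% and 45.8% of the sum in the controls and 44.5% and 44.1% in DMHCA 1+3 and DMHCA 2. The shares did not overlap, and the difference of 1.57 percentage points, lower with DMHCA, gave p = 0.1 in a two-sided exact permutation test with 10 possible arrangements of the samples, which is the smallest p this design allows. C1qb took 27.6%, 27.8% and 26.6% in the controls and 28.2% and 29.2% with DMHCA, a difference of 1.4 points with the same exact p of 0.1. C1qc took 26.2% to 27.6% in all samples (exact permutation p = 0.8). These were 3 tests, and none could pass 0.05.

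**Figure D2:**
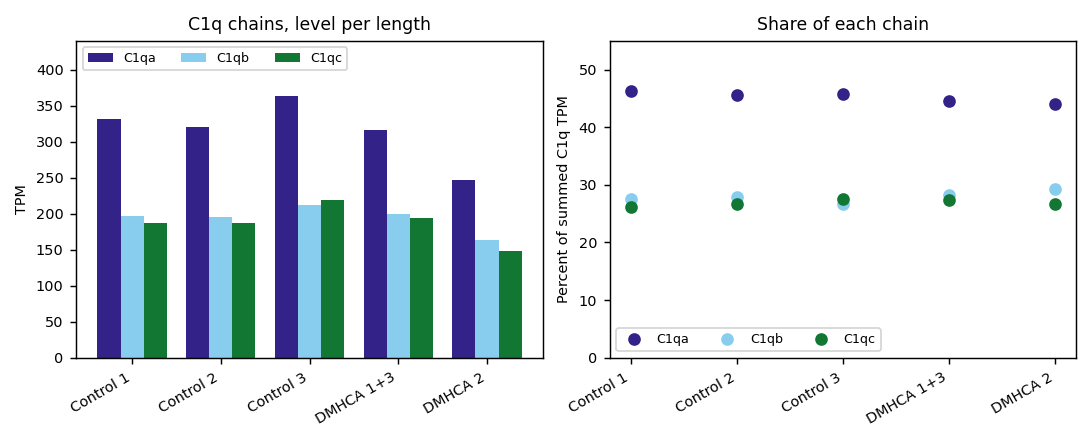
Left, level of each C1q gene in TPM by sample. Right, share of each chain in percent of the summed C1q TPM, with C1qa at 45.6% to 46.2% in the controls and 44.1% to 44.5% in the DMHCA samples.

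C1q RNA was set against the summed macrophage markers. The C1q sum was 715.8, 701.1 and 795.2 TPM in the controls and 709.6 and 558.9 TPM with DMHCA. The sum of 10 macrophage markers, in which Lyz2, a gene also expressed by other myeloid cells, was the most abundant, was 735, 481 and 1601 TPM against 636 and 510 TPM. The C1q sum was therefore 0.97, 1.46 and 0.5 times the marker sum in the controls and 1.12 and 1.1 times in the DMHCA samples, which fell inside the range of the controls. Without Lyz2 the other 9 markers summed to 176, 129 and 265 TPM against 202 and 156 TPM, and the C1q sum was 4.06, 5.45 and 3.0 times that in the controls and 3.51 and 3.58 times in the DMHCA samples, again inside the range. Csf1r, the receptor that macrophages need for survival, had 26.75, 19.78 and 34.98 TPM in the controls and 29.92 and 23.35 TPM with DMHCA, and the groups overlapped. Of the 10 macrophage markers 6 had a lower and 4 a higher mean with DMHCA. In normalized counts 2 were lower without overlap, against 12.2% of all genes. In TPM 1 was, Aif1, with 36.99, 37.26 and 61.72 TPM against 32.7 and 21.67 TPM.

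C3, the protein on which the pathways converge, had the largest fold difference of the 9 and rested on 1 library. It had 4244, 2110 and 22994 normalized counts in control 1, control 2 and control 3, against 2902 in DMHCA 1+3 and 1524 in DMHCA 2. Control 3 was 10.9 times control 2, and DMHCA 1+3 was above control 2, so the groups overlapped. The log2 fold change was -2.14 (SE 1.04, interval -4.63 to 0.34, edgeR adjusted p = 0.644), and without control 3 it was -0.53 with an adjusted p of 0.918. By limma on TPM it was -1.23 and -1.2 with a pseudocount of 0.1 and 1. Without control 2 it was -2.62, with an unadjusted p of 0.0243 and an adjusted p of 0.508 by edgeR. Control 3 was the sample with the highest level of 8 of 8 B cell, 8 of 8 T cell, 5 of 5 lymph node stroma, 7 of 8 adipocyte and 8 of 10 macrophage markers. The part of these tissues in the level of C3 was not tested.

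The genes with profiles nearest to that of C3 were Arhgap45 (root mean square 0.116 on the centred log2 scale), Ptn (0.132), Rgs14 (0.136), Rasal3 (0.149) and Myo1g (0.157), among 14157 genes compared. The nearest of the other 8 complement genes was C5ar1, in place 750 at a distance of 0.848.

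C4b encodes complement C4, the substrate of C1s. It had 8291, 3851 and 14589 normalized counts in the controls and 12446 and 3344 in DMHCA 1+3 and DMHCA 2. The DMHCA samples were farther apart than control 1 was from control 2, with DMHCA 1+3 near the top of the range of the controls and DMHCA 2 below its lowest value. The log2 fold change was -0.17 (SE 0.70, interval -1.86 to 1.51, edgeR adjusted p = 0.954), and it was 0.38 without control 3 and 0.53 without DMHCA 2. By limma on TPM it was -0.94 and -0.93 with a pseudocount of 0.1 and 1, so no direction can be given. C4a, a near-identical neighbour, was assigned 1.02% to 2.84% of the reads of the pair, and how RSEM divided the reads between them makes both values uncertain. The ratio of C4b to C3 in normalized counts was 1.95, 1.83 and 0.63 in the controls and 4.29 and 2.19 in the DMHCA samples. In TPM the ratio was 3.63, 7.66 and 1.55 against 6.05 and 3.04, which overlapped. The length that RSEM used for C4b ran from 1252.71 to 3247.37 bases between libraries, which enters its TPM but not its counts.

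Cfb, which encodes the protease of the alternative pathway convertase, placed the samples in nearly the same order as C4b. It had 2497, 1351 and 4843 normalized counts in the controls and 4053 and 1832 with DMHCA. Its group means were nearly equal, 2897 ± 1780 (SD, n = 3) and 2943 ± 1571 (SD, n = 2), and the log2 fold change was 0.02 (SE 0.58, interval -1.37 to 1.42, edgeR adjusted p = 0.992). It changed sign with the setting, from -0.32 without control 2 to 0.61 without control 3. Cfb ranked 62nd nearest to C4b of 14156 genes, with a root mean square of 0.306 on the centred log2 scale. A readthrough transcript on the same strand, Gm20547, shares exons with Cfb and was assigned at most 0.51 expected counts in any library.

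Serping1, the inhibitor of the C1 proteases, was highest in control 3. It had 4556, 4884 and 10939 normalized counts in the controls and 6107 and 3227 with DMHCA. DMHCA 1+3 was above control 1 and control 2 and DMHCA 2 below them. The log2 fold change was -0.54 (SE 0.49, interval -1.73 to 0.65, edgeR adjusted p = 0.757), and it was -0.02 without control 3.

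The anaphylatoxin receptors differed in how much they varied. C3ar1, the receptor for C3a, had 1691, 1705 and 2582 normalized counts in the controls and 1992 and 1667 with DMHCA, a range of 1.55-fold over all samples, the narrowest of the 9. Its log2 fold change was -0.12 (SE 0.30, interval -0.85 to 0.61, edgeR adjusted p = 0.919), and it was 0.10 without control 3. C5ar1, the receptor for C5a that is carried by neutrophils and macrophages, had 567, 628 and 1308 normalized counts in the controls and 631 and 358 with DMHCA. DMHCA 1+3 matched control 2, DMHCA 2 was the lowest sample, and the log2 fold change was -0.75 (SE 0.53, interval -2.01 to 0.51, edgeR adjusted p = 0.705) and -0.28 without control 3. The sum of 8 neutrophil markers was 435, 51.8 and 3185 TPM in the controls and 86.8 and 235 TPM with DMHCA. Ltf was its most abundant gene except in DMHCA 2, where S100a8 had 198.65 TPM and Ltf 35.1 TPM, and without Ltf the sum was 27.8, 17.5 and 34.2 TPM in the controls, 6.08 TPM in DMHCA 1+3 and nearly all S100a8 in DMHCA 2. Ly6g, which defines neutrophils in the mouse, was at 0 to 0.14 TPM. C5ar1 and Serping1 had like profiles, with C5ar1 the 7th nearest of 14156 genes to Serping1 at a root mean square of 0.115.

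**Figure D3:**
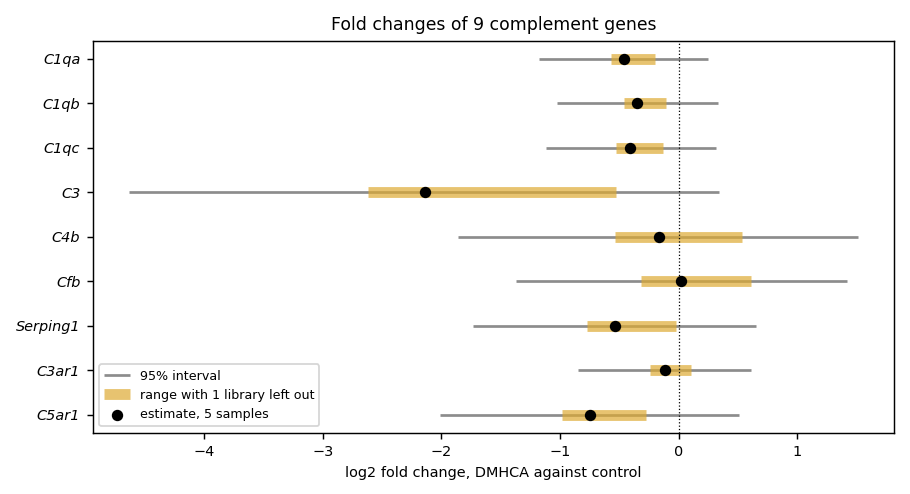
Log2 fold change of DMHCA against control (horizontal axis) for the 9 complement genes, with 95% intervals (grey) and the range of estimates when 1 library was left out (yellow). All intervals cross 0, and the estimate for C3 ranged from -2.62 to -0.53.

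The width of the intervals limits what can be said of equal levels. For the C1q genes the 95% intervals ran from -1.18 to 0.33 at most, so a level lower by 1 on the log2 scale with DMHCA was inside each of them. For C4b and Cfb they ran from -1.86 to 1.51 and from -1.37 to 1.42. The highest sample exceeded the lowest by a median of 3.39-fold over the 9 genes and 1.79-fold over the C1q genes, against 2.41-fold over all genes tested. Among tested genes with a mean of at least 100 normalized counts, as all 9 have, the median was 2.06-fold.

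The wider complement list held 51 other genes, of which 36 had enough counts to be tested and 15 did not. The highest expected count of an untested gene in any library was 47, for C9, a component of the membrane attack complex. Of the 36, 27 had a lower mean with DMHCA and 9 a higher, with a median log2 fold change of -0.62, and 21 of 35 tested were lower without control 3. None passed an adjusted p of 0.05 by edgeR. At an unadjusted p under 0.05, 6 were lower (C1ra, C1rb, Cfd, Clu, Cr2 and Itgax) and 2 were higher (Vsig4 and Cd93), against 4.08% and 3.53% of all genes. Cr2 was tested only because of the controls in which it was high. The counts were 4 lower and 1 higher without control 3 (3.27% and 2.16% of all genes), 3 lower and 1 higher without control 1 (3.37% and 3.33%), 7 lower and 3 higher without control 2 (6.48% and 2.91%), and 2 lower and 0 higher without DMHCA 2 (1.48% and 2.78%). The control and DMHCA samples did not overlap for 10 genes lower and 3 higher with DMHCA, against 12.2% and 13.8% of all genes.

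**Figure D4:**
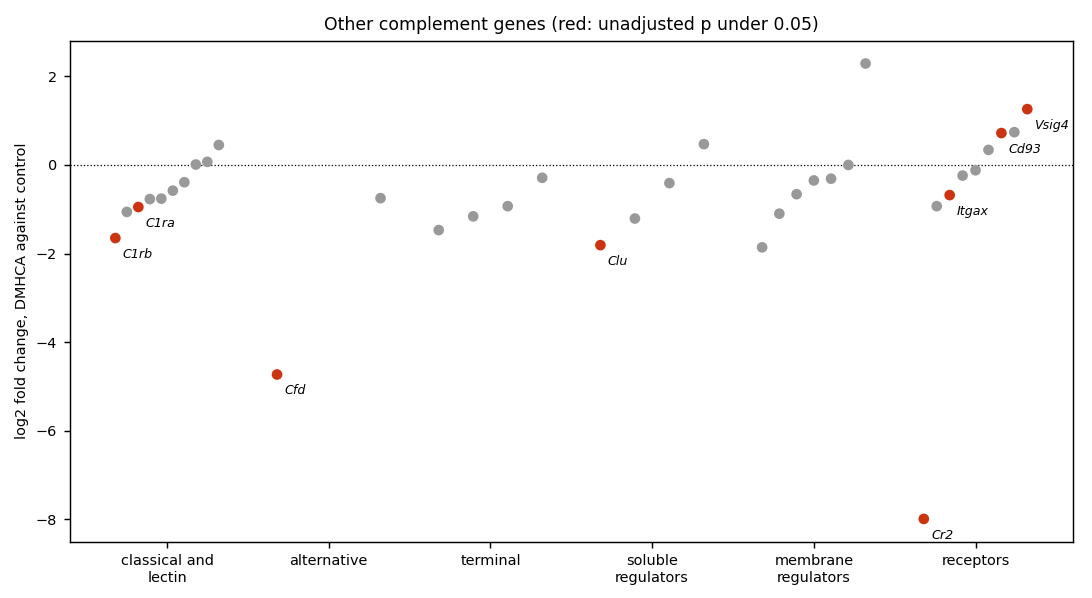
Log2 fold change of DMHCA against control (vertical axis) for the 36 tested genes of the wider complement list, grouped by role. Red points had an unadjusted edgeR p under 0.05, and 0 genes passed after adjustment.

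Among the classical pathway proteases, C1ra had 2971, 2731 and 3915 normalized counts in the controls and 1704 and 1610 with DMHCA. The groups were separate, with a log2 fold change of -0.95 (SE 0.27, edgeR adjusted p = 0.644) that ranged from -1.06 to -0.79 when 1 library was left out. C1s1, its partner, had 1882, 1342 and 6481 normalized counts against 2233 and 1572, and its log2 fold change of -0.77 was 0.24 without control 3. C2 had 947, 395 and 1797 normalized counts against 632 and 368, with a log2 fold change of -1.06 that was -0.43 without control 3. C1s1 and C2 overlapped between the groups and, like C3, were highest in control 3. The remaining members of the classical and lectin list that were tested were 4 lower and 3 higher in mean.

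In the alternative pathway, Cfd encodes factor D, also known as adipsin, which is made by fat cells. It had 3033, 457 and 11001 normalized counts in the controls and 84.3 and 282.9 in DMHCA 1+3 and DMHCA 2. The groups did not overlap, with a log2 fold change of -4.73 (SE 1.42, edgeR adjusted p = 0.644), which was -3.27 without control 3. Of the 8 adipocyte markers, 7 were also lower with DMHCA without overlap in normalized counts (12.2% of all genes were) and 5 in TPM, with a list median log2 fold change of -4.6, and their part in the level of Cfd was not tested. DESeq2 on the 5 samples called Cfd with an adjusted p of 0.00319. Cfp, which encodes properdin, the stabilizer of the convertase, had 1022, 1089 and 3581 normalized counts against 1313 and 937, and its log2 fold change of -0.75 was 0.09 without control 3.

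Of the terminal components, Hc, which encodes C5, had 415, 154 and 1352 normalized counts in the controls and 172 and 290 with DMHCA, with overlap and a log2 fold change of -1.47 that was -0.31 without control 3. The 4 terminal genes tested all had lower means, and none had an unadjusted p under 0.05.

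Among the soluble regulators, Clu, which encodes clusterin, an inhibitor of the membrane attack complex, was the most abundant in counts. It had 73627, 59668 and 49557 normalized counts in the controls and 8707 and 25980 with DMHCA. The groups were separate, with a log2 fold change of -1.81 (SE 0.54, edgeR adjusted p = 0.644), and leaving out a library gave -2.77 to -1.67. DESeq2 gave an adjusted p of 0.0801 on the 5 samples and of 0.00295 on the 6 libraries, which count DMHCA 1 and DMHCA 3 separately. Cfi, which encodes factor I, had a log2 fold change of 0.47, with overlap. On the cell surface, the regulators Cd55 and Cr1l had log2 fold changes of -0.66 and -0.31, and that of Cd55 was -0.03 without DMHCA 2. Susd4, the membrane regulator with the largest fold, had 222.8, 14.79 and 107.7 normalized counts in the controls and 785.2 and 343.6 with DMHCA, without overlap, with a log2 fold change of 2.29 (SE 1.0, edgeR adjusted p = 0.644) that ran from 1.77 without control 2 to 3.19 without control 1. Cd59a had nearly equal means, 4376 normalized counts in the controls and 4373 with DMHCA, and took either sign with the setting.

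The complement receptors held members of both directions. Cr2, the receptor of B cells and follicular dendritic cells, had 682, 5.69 and 5994 normalized counts in the controls and 9.64 and 7.28 with DMHCA. Control 2 was below both DMHCA samples, so the groups overlapped, although the log2 fold change was -7.99 (SE 2.66, edgeR adjusted p = 0.644). Cr2 reached the minimum count for testing only through control 1 and control 3, was not tested when either was left out, and had a log2 fold change of -2.97 or -2.19 by limma on TPM with a pseudocount of 0.1 or 1, so its fitted fold is no measure of a difference between the groups. The B cell marker sum ran in the same order at the top, 304 TPM in control 3 and 37.3 TPM in control 1, and at most 3.1 TPM in the other samples, and its part in Cr2 was not tested. In TPM Cr2 was 0.09 and 0.51 in the DMHCA samples, and RSEM's length for it differed between libraries at these few reads. Vsig4, a receptor for C3 fragments on resident macrophages, had 40.4, 39.8 and 33.7 normalized counts in the controls and 101 and 81.3 with DMHCA. It was separate between the groups, with a log2 fold change of 1.26 (SE 0.50, edgeR adjusted p = 0.644), from 1.18 to 1.45 when 1 library was left out. Cd93, once described as a C1q receptor, had 1531, 1699 and 1839 normalized counts against 2563 and 2988, with a log2 fold change of 0.72 (SE 0.24, edgeR adjusted p = 0.644). Cd93 is also made by endothelial cells. Of 7 endothelial markers, 3 had a higher and 4 a lower mean of normalized counts with DMHCA, with a median log2 fold change of -0.09. On that scale 2 were higher and 1 lower without overlap, against 13.8% and 12.2% of all genes. In TPM 3 were higher without overlap (Cdh5, Tie1 and Kdr, with log2 fold changes of 0.81, 0.58 and 0.33) and 1 lower (Egfl7, -0.6). The part of endothelial cells in Cd93 was not tested. Itgam, a subunit of complement receptor 3, had a log2 fold change of -0.24, with controls at 1128 to 1290 normalized counts and DMHCA samples at 999 and 1032. C5ar2, the other C5a receptor, had 1164, 410 and 1798 normalized counts against 3288 and 454, which overlapped, with a log2 fold change of 0.74 that ran from 0.34 without control 2 to 1.59 without DMHCA 2.

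**Figure D5:**
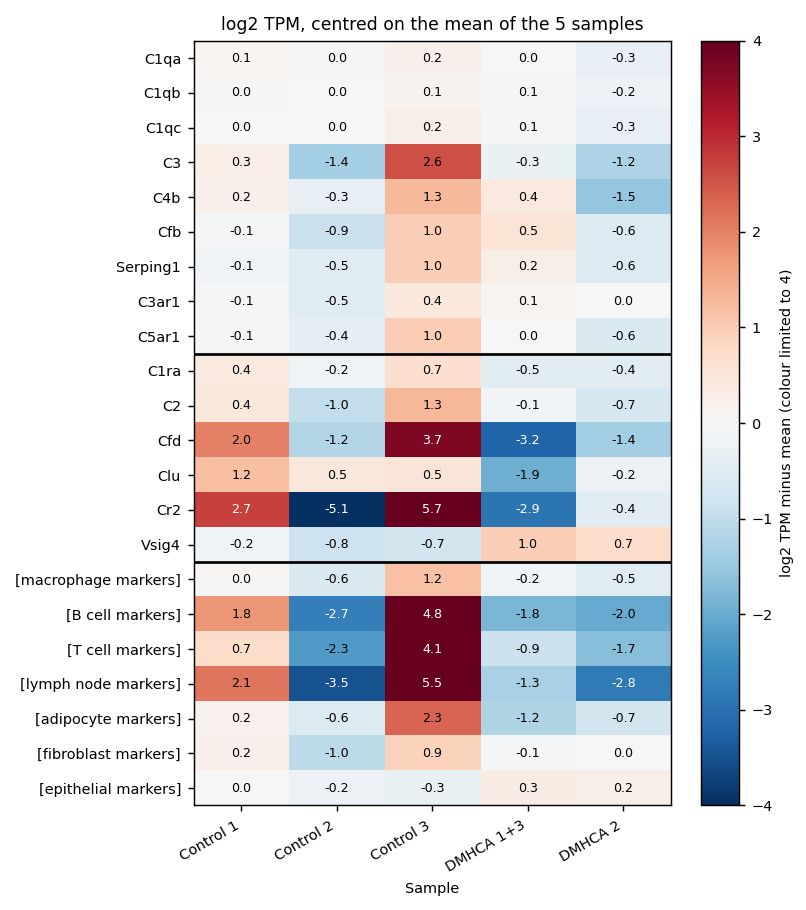
Log2 TPM of the 9 complement genes (top), 6 genes of the wider list (middle) and summed marker lists (bottom) in each sample, centred on the mean of the 5 samples, with colour limited to ± 4. The C1q genes differed by at most 1.48-fold between samples in TPM, and C3, Cfd, Cr2 and the B cell, T cell, lymph node and adipocyte sums were highest in control 3.

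T cell markers summed to 37.2, 4.62 and 378 TPM in the controls and 12.2 and 6.85 TPM with DMHCA. Fibroblast markers summed to 793, 336 and 1305 TPM against 656 and 687 TPM, and endothelial markers to 94.5, 75.9 and 117 TPM against 92.4 and 98.8 TPM. Hepatocyte markers, genes of the cells that make most plasma complement, stayed at 0.71 to 5.19 TPM in all samples. Cfb and Serping1, like the fibroblast sum, were highest in control 3, and their lowest samples were control 2 and DMHCA 2. The part of any of these cell types in the complement genes was not tested.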

How the data were processed

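RNA was extracted from snap-frozen tissue, and 1 gene table per library was deposited for 3 control and 3 DMHCA libraries. Per the submitters' processing notes and the study's methods, reads were checked with FastQC 0.11.9, trimmed with Cutadapt 2.9, and aligned and counted by RSEM 1.3.1 with Bowtie2 2.4.1 on the Ensembl mouse genome (mm10, GRCm38, release 99). The strand setting is not given in the sources used here. The authors deposited RSEM's expected counts (estimated reads per gene, not normalized), TPM (per effective length, with a fixed sum in each library) and the transcript lengths behind them, which differ between libraries for genes with several isoforms. FPKM was not used.

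The members and lists were chosen with earlier results of these data known. Expected counts were rounded, DMHCA 1 and DMHCA 3 were summed because their values were near-identical, and edgeR 4.0.16 under R 4.3.3 was run on the 5 samples (TMM, filterByExpr at its defaults, 10 counts and a total of 15, quasi-likelihood F-test, Benjamini-Hochberg adjustment over 19427 genes, threshold 0.05). Normalized counts are scaled by TMM to the mean effective library size, and TPM of DMHCA 1+3 is the mean of both libraries. The script was tested on simulated data. Chain shares were compared by an exact permutation test. With 3 and 2 samples, precision is set by their spread, not by depth. The study describes tumors from 3 control and 3 DMHCA-treated mice, and the labels do not tie a library to an animal. Alternatives were DESeq2 1.42.0 on 5 samples and on 6 libraries, edgeR on 6 libraries with and without a replicate block, DESeq2 size factors, no filter or at least 50 counts in 2 samples, limma 3.58.1 on log2(TPM + 1) and log2(TPM + 0.1), and each library left out. Same-numbered samples correlated at -0.047, 0.316 and 0.33, so the numbers were not taken as pairs.

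The genes named are the 9 members, fixed members of each complement role, genes nearest in profile to C1q and to C3 among those with a mean of at least 100 normalized counts, and the most abundant markers. C1rb, Cd93, Itgax, Susd4, C9, Csf1r, Ly6g, Cdh5, Tie1, Kdr, Nr1h3 and Gm20547 were named after their values were seen. Coordinates are from GENCODE mouse release 21, in which 55144 of 55385 genes (99.6%) were found. Python 3.11.15, pandas 2.3.3, numpy 2.4.6 and matplotlib 3.10.9 were used.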

Additional observations from a re-analysis of the deposited data

How the results depend on the processing

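No complement gene among the 9 passed an adjusted p of 0.05 in any alternative run, and of their 135 alternative values 121 kept direction and 14 changed sign, all in C3ar1, C4b and Cfb. The number of genes called was 0 by edgeR, 16 without a filter on low counts and 244 by DESeq2 on 5 samples (of 35367 genes with a p-value). DESeq2 on 6 libraries, which counts DMHCA 1 and DMHCA 3 separately, called 887 (4.45% of 19951 genes with an adjusted p). Of the 51 genes of the wider complement list, DESeq2 called 2 on 5 samples (Cfd and Cr2, adjusted p = 0.00319 and 0.0303). It called 7 on 6 libraries, among them C1ra, Cfd, Clu, Cr2 and Vsig4. Cr2 was high only in control 1 and control 3. The cause of the differences between the runs was not tested. The replicate numbers are shared between the groups, and the deviations of replicates 2 and 3 correlated best with their own number (0.316 and 0.33, although control 3 also correlated at 0.319 with DMHCA 1), while control 1 did not (-0.047, against 0.075 with DMHCA 2). The fit with the replicate block on 6 libraries called 0 genes, with 3207 at an unadjusted p under 0.05 against 2912 without the block. Under the block C4b was 0.03 and Cd59a 0.08, and the pairing changed no call at an adjusted p of 0.05. At the unadjusted level by edgeR, C5ar2 passed under the block (0.83, unadjusted p of 0.0338, against 1.04 and 0.227 on 6 libraries without it). C3 no longer did (-1.31, unadjusted p of 0.0712, against -2.02 and 0.0494). Log2 fold changes with the other sign were C3ar1 0.10 and 0.09, C4a -0.06 and -0.05, Cfb -0.0062 and -0.0085, and Cd59a 0.18 and 0.17 by limma with a pseudocount of 0.1 and 1. On that TPM scale the median of all genes was 0.162 and 0.108, against -0.029 in edgeR. They were C4b 0.10 and Cd59a 0.12 by DESeq2 on 6 libraries, C4b 0.06 and Cd59a 0.10 by edgeR on 6 libraries, Cd59a 0.02 by DESeq2 on 5 samples and 0.03 without a filter, and C4a -0.04 and Cfb -0.03 with at least 50 counts in 2 samples. With 1 library left out, the log2 fold change ranged from -1.14 to 0.24 for C1s1, -1.07 to 0.09 for Cfp, -0.24 to 0.10 for C3ar1, -0.17 to 0.34 for C4a, -0.54 to 0.53 for C4b, -0.13 to 0.37 for Cd59a and -0.32 to 0.61 for Cfb. Leaving out DMHCA 2 left 1 DMHCA sample, assumed to vary like the controls. The C1qa share, 45.26% as the mean of 5 samples, was 45.01% to 45.53% under the alternatives.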
